A study of Mus musculus with 4 samples.

Results

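The genes described here belong to the cadherin superfamily and were found by a rule on gene symbols that uses no measured value. They are the numbered cadherins, the non-clustered protocadherins whose symbols end in a number, the *Celsr* and *Fat* genes, *Dchs1* and the calsyntenins. 45 of the 24421 genes in the deposited table matched, and a protocadherin whose symbol ends in a letter is left out. GFP+ cells were sorted by flow cytometry from dissociated mouse neural tubes at E11.5, and their RNA was sequenced for 2 genotypes, *Prdm13GFP/+* (labelled heterozygous) and *Prdm13GFP/GFP* (labelled homozygous mutant). In both, a GFP cassette placed in exon 1 of *Prdm13* disrupts the allele that carries it, so the controls have 1 working copy, the mutants none, and no wild-type cells were part of the comparison. The embryos were of a mixed ICR and C57Bl/6 background, and trypsin was used to free the cells. RNA from several embryos of a genotype was combined into 1 pool and 2 libraries of polyadenylated RNA were made from it. The libraries are technical replicates, so every SD and test below covers the spread between libraries and none of the spread between embryos.

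The question put to these cells by the study is which genes change when PRDM13, a zinc finger repressor of the dorsal neural tube, is lost. *Prdm13* itself read 113.9 and 126.8 RPKM (reads on a gene scaled to its exon length and to library size) in the *Prdm13GFP/+* libraries and 309.5 and 324.5 RPKM in the *Prdm13GFP/GFP* libraries. The disrupted allele still gives transcripts that count toward the gene, so these levels say nothing about functional protein. The table allowed whole reads to be recovered, and they summed to 11730981 and 18656354 in *Prdm13GFP/+* and to 16644325 and 14078308 in *Prdm13GFP/GFP*.

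Cadherins join cells to one another through extracellular repeats held rigid by calcium, and the classical type I and type II cadherins bind catenins, which link them to actin. Protocadherins adhere weakly and signal through other partners, the *Celsr* and *Fat* families set the polarity of cells within a sheet, and calsyntenins carry cargo along axons and organise synapses. In the developing neural tube, N-cadherin holds the progenitor epithelium together, and combinations of type II cadherins and delta-protocadherins mark groups of neurons that sort from one another.

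The sort labels were checked against markers. All 8 markers of the dorsal spinal cord were above the filter described next, with summed levels of 562.1 and 621.9 RPKM in *Prdm13GFP/+* and 360.0 and 376.4 RPKM in *Prdm13GFP/GFP*. The most abundant by the mean over the 4 libraries was *Lhx5*, a homeodomain factor of dorsal inhibitory neurons. It read 134.2 and 148.5 RPKM in *Prdm13GFP/+* and 31.1 and 34.0 RPKM in *Prdm13GFP/GFP*. In *Prdm13GFP/GFP* alone the most abundant was *Tlx3*, at 86.2 and 94.1 RPKM, against 4.63 and 5.63 RPKM in *Prdm13GFP/+*. Of the 8 markers, 5 fell and 2 rose by the adjusted p rule given in the next paragraph, and none was at 0. Those that fell were *Pax7*, *Lbx1*, *Pax2*, *Lhx1* and *Lhx5*, and those that rose were *Tlx3* and *Ptf1a*. *Ptf1a* rose from a mean of 16.01 to 56.5 RPKM, so the lower dorsal sum does not describe every marker in it. Of all tested genes 9.76% rose and 9.95% fell, shares that also stand beside the neuronal and progenitor counts below. The 6 neuronal markers, led by *Tubb3*, a neuronal tubulin, summed to 1627 and 1673 RPKM in *Prdm13GFP/+* against 1994 and 2075 RPKM in *Prdm13GFP/GFP*. By the same rule 4 of the 6 rose, none fell and none was at 0. *Map2* and *Dcx* did not pass but had lower means in *Prdm13GFP/GFP*, at 126.2 against 140.4 RPKM and 91.0 against 95.6 RPKM. The 6 progenitor markers, led by *Vim*, an intermediate filament gene, summed to 2067 and 2029 RPKM against 2019 and 2089 RPKM. By that rule 1 rose, 2 fell and none was at 0. *Hes5* rose from a mean of 125.8 to 167.9 RPKM, while *Sox2* fell from 156.5 to 112.2 RPKM and *Sox1* from 14.6 to 9.04 RPKM. *Vim* and *Fabp7* outweigh these genes in the sum, so the similar sums do not show that progenitor markers were unchanged. The pools also differed in sex-linked RNA, since *Xist*, which coats the inactive X chromosome of females, read 22.4 and 21.6 RPKM in *Prdm13GFP/+* and 6.55 and 6.03 RPKM in *Prdm13GFP/GFP*, and the Y-linked *Eif2s3y* read 19.1 and 17.8 against 27.8 and 28.1 RPKM. The part of the neuronal, progenitor, dorsal and sex-linked differences in the results that follow was not tested. In pooled cells a shift in the share of a cell type cannot be told apart from a change within it.

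Of the 45 genes, 23 reached a mean of 1 RPKM in either genotype and were tested with limma on log2(RPKM + 0.1), two-sided, with Benjamini-Hochberg adjustment over all 12046 genes that passed the same filter. A gene rose or fell here when its adjusted p was under 0.05, and was called when its fold was also at least 1.5. 4 of the 23 rose in *Prdm13GFP/GFP* (17.4%, where 9.76% of all tested genes rose) and 8 fell (34.8%, where 9.95% of all fell). The risers were *Cdh22*, *Pcdh8*, *Cdh2* and *Fat4*. The genes that fell were *Clstn2*, *Pcdh19*, *Pcdh9*, *Cdh4*, *Fat1*, *Cdh11*, *Fat3* and *Clstn3*. By the stricter rule 2 were called higher, *Cdh22* and *Pcdh8* (3.65% of all tested genes were called higher), and 3 called lower, *Clstn2*, *Pcdh19* and *Pcdh9* (2.67% of all). The 23 genes carried a median of 3169 reads over the 4 libraries and all tested genes 2349.5, and the precision of each value depends on this depth. Their median absolute log2 fold change was 0.30, against 0.13 over all tested genes, while their median signed change was -0.06, against 0.01. In 16 of the 23 the libraries of the genotypes did not overlap, as was so for 62.1% of all tested genes. *Cdh8* alone passed the filter through 1 genotype only, *Prdm13GFP/+*.

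**Figure D1:**
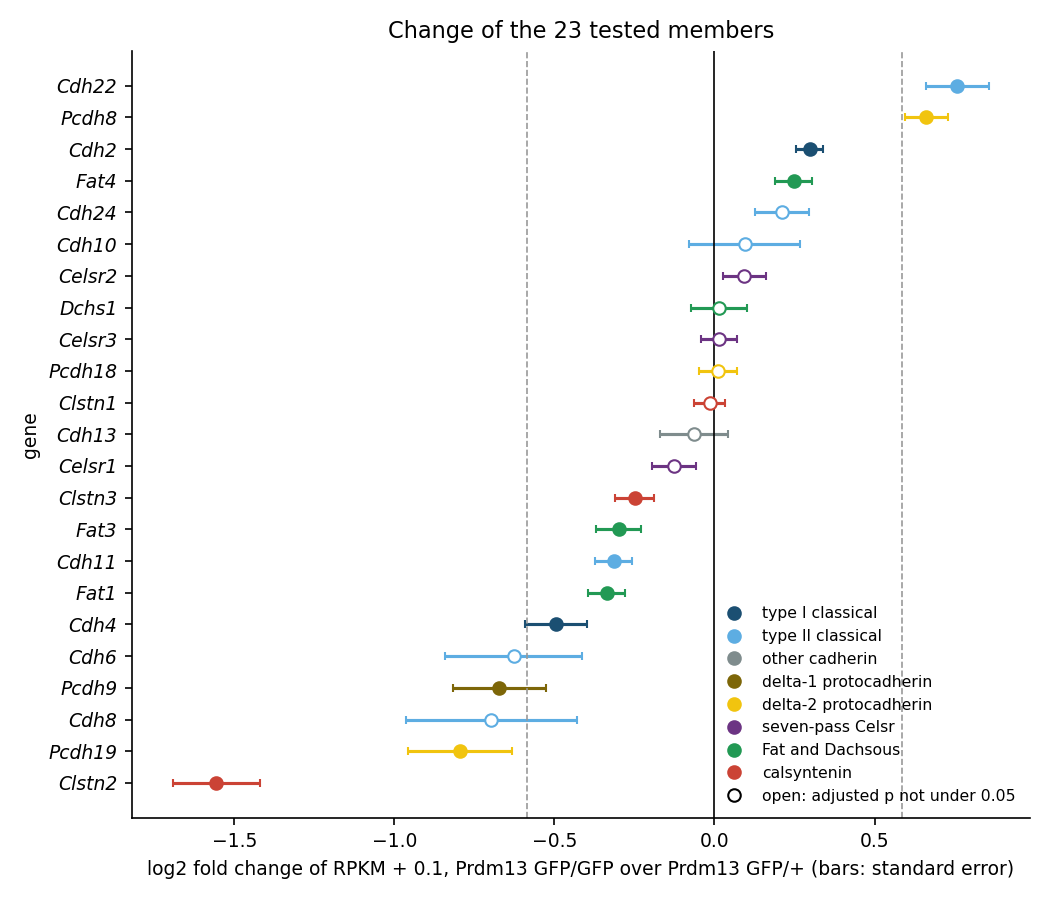
Log2 fold change of RPKM + 0.1 in *Prdm13GFP/GFP* over *Prdm13GFP/+* for the 23 tested genes (horizontal axis; bars are the standard error, n = 2 libraries of 1 pool per genotype), coloured by family, with dashed lines at a fold of 1.5. Filled points had an adjusted p under 0.05, and *Clstn2* lies farthest from 0 at -1.56.

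With 1 library left out, a genotype has a single library, which is taken to vary like the 2 of the other genotype, and fewer genes pass over the whole table (2.70 to 5.16% rose and 2.43 to 3.72% fell). With a *Prdm13GFP/+* library left out, 3 of the 23 genes rose and 1 fell, whichever library was dropped. Without *Prdm13GFP/GFP* library 1, 2 rose and 1 fell, and without *Prdm13GFP/GFP* library 2, 1 rose and 1 fell. *Clstn2* and *Pcdh8* passed in all 4 of these fits, *Cdh22* in 3, *Cdh2* in 2 and the other 8 genes in none, although no fold change of the 12 changed sign. Several of the folds that no longer passed hardly moved, as that of *Fat3*, which lay between -0.31 and -0.29. With no RPKM filter none of the 12 passed by limma, at adjusted p of 0.0619 for *Clstn2*, 0.0817 for *Pcdh8* and 0.0888 for *Cdh22*. In that fit 0.135% of all 24421 genes rose and 0.0737% fell. A limma voom fit on the recovered reads of 12039 genes, the same 23 among them, gave 5 higher and 10 lower (12.9% and 14.4% of all genes in that fit).

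The start regions of the 5 called genes are shown to give their sequence context. They were searched for E-boxes, the CANNTG motif that basic helix-loop-helix factors bind, and for 3 other motifs, and these windows hold no distal enhancers, where such factors also bind. Each is 300 bases of RefSeq sequence on GRCm38.p6, from 250 bases before to 50 after a transcript start, read 5′ to 3′ on the gene's strand. All 5 genes lie on the minus strand. The windows are chr9:98033118-98033417 for *Clstn2*, chrX:133688944-133689243 for *Pcdh19*, chr14:93890630-93890929 for *Pcdh9*, chr2:165234688-165234987 for *Cdh22* and chr14:79771263-79771562 for *Pcdh8*. Only the *Pcdh8* start is the outermost of its gene, and the others lie 51 (*Pcdh19*), 187 (*Cdh22*), 206 (*Clstn2*) and 2155 (*Pcdh9*) bases inside it. Capitals mark the E-box CANNTG, the CCAAT box (also ATTGG, its reverse), the TATA motif TATAAA (also TTTATA) and the cyclic AMP element TGACGTCA, none of which overlapped another.
*Clstn2*: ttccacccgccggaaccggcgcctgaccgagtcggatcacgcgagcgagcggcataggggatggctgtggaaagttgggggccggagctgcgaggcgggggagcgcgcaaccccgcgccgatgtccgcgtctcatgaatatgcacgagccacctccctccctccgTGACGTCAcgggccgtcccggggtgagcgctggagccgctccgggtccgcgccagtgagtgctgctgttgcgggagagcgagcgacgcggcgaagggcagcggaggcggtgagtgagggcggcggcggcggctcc
*Pcdh19*: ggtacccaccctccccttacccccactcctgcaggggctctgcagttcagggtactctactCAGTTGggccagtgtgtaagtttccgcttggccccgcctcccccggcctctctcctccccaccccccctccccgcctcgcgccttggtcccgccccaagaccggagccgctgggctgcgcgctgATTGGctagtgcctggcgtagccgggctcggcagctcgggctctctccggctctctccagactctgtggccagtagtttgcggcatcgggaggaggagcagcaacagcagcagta
*Pcdh9*: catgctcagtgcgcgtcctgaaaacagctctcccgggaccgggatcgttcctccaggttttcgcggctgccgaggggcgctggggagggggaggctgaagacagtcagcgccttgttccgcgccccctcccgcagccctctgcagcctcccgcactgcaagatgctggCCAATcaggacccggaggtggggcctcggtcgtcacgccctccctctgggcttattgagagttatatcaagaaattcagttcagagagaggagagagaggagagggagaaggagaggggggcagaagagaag
*Cdh22*: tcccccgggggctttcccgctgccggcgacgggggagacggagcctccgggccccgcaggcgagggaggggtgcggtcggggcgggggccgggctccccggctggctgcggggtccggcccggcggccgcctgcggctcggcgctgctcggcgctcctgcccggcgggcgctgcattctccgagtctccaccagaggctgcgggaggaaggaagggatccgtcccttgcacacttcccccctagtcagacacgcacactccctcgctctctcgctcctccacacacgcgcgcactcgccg
*Pcdh8*: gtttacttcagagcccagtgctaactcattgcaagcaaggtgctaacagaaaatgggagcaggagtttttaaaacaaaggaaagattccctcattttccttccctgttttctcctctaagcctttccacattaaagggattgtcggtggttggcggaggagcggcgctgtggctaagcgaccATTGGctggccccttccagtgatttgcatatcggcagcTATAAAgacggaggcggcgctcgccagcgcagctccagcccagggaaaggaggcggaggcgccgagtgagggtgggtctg
The *Pcdh19* window held the E-box CAGTTG, and no E-box letters were in the other 4 windows. A CCAAT box stood in the *Pcdh19*, *Pcdh9* and *Pcdh8* windows, TATAAA in that of *Pcdh8* and TGACGTCA in that of *Clstn2*. The *Cdh22* window held none of the 4 motifs. Of 27025 promoter windows of this length, 72.1% held an E-box, 37.9% CCAAT, 14.2% TATAAA and 1.88% TGACGTCA. Windows were found for 17 of the 23 tested genes, and 8 of the 17 held an E-box, 7 CCAAT, 1 TATAAA and 2 TGACGTCA. These are matches of letters in short windows and were not compared with any binding data here.

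The classical cadherins comprised 18 of the 45 genes, and 8 of them were tested. 2 rose, 2 fell and 4 did not pass, where 9.76% of all tested genes rose and 9.95% fell, and their median log2 fold change was -0.11. Their summed level was 130.6 and 135.6 RPKM in the *Prdm13GFP/+* libraries and 151.6 and 152.7 RPKM in the *Prdm13GFP/GFP* libraries. *Cdh2*, N-cadherin, made up 65.0 and 64.1% of that sum in *Prdm13GFP/+* and 69.6 and 69.2% in *Prdm13GFP/GFP*. Without *Cdh2* the sums were 45.7 and 48.7 RPKM against 46.1 and 47.0 RPKM, and the genotypes overlapped.

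*Cdh2* (gene ID 12558, chromosome 18 from 16588877 to 16809246 of GRCm38) read 84.8 and 87.0 RPKM in *Prdm13GFP/+* and 105.5 and 105.7 RPKM in *Prdm13GFP/GFP*. Both mutant libraries lay above both controls. Its log2 fold change was 0.30 (standard error, SE, 0.0432, limma adjusted p = 0.00558), and leaving out either *Prdm13GFP/GFP* library raised the adjusted p past 0.05, to at most 0.0631, in a range of 1.38e-05 to 0.0631 over the alternatives. *Cdh4*, R-cadherin, the other type I gene above the filter, went the opposite way, with 5.34 and 5.95 RPKM in *Prdm13GFP/+* and 4.17 and 3.78 RPKM in *Prdm13GFP/GFP*. Its log2 fold change was -0.49 (SE 0.0967, limma adjusted p = 0.0163), and the adjusted p was 0.0529 to 0.131 with any 1 library left out. The remaining type I genes, *Cdh1*, *Cdh3* and *Cdh15* (E-, P- and M-cadherin), stayed under 0.22 RPKM in every library.

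Among the 13 type II genes 6 were tested, and 1 rose and 1 fell, which for so few genes is near the 9.76% and 9.95% of all tested genes. *Cdh22* (gene ID 104010, chromosome 2 from 165111501 to 165234924), a type II cadherin of the brain and pituitary, read 2.77 and 3.09 RPKM in *Prdm13GFP/+* and 4.91 and 5.14 RPKM in *Prdm13GFP/GFP*, which is 115, 203, 286 and 252 reads. The mutant libraries stood 1.71-fold above the controls in mean RPKM, with a log2 fold change of 0.76 (SE 0.0987, limma adjusted p = 0.00382). Without *Prdm13GFP/GFP* library 2 its log2 fold change was 0.73 and its adjusted p 0.0618, in a range of 1.38e-05 to 0.0888 over the alternatives. *Cdh11*, a cadherin of mesenchyme and neural tissue, read 12.4 and 12.2 RPKM in *Prdm13GFP/+* and 9.79 and 9.95 RPKM in *Prdm13GFP/GFP*. It fell by 0.31 on the log2 scale (SE 0.058, limma adjusted p = 0.0132), and with any 1 library left out the adjusted p was 0.0831 to 0.0952.

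*Cdh24*, a broadly expressed type II cadherin, was the most abundant of that type, at 17.8 and 20.6 RPKM in *Prdm13GFP/+* and 21.4 and 23.1 RPKM in *Prdm13GFP/GFP*. Its libraries did not overlap between genotypes, but its adjusted p was 0.129, with a range of 0.0262 to 0.513 over the alternatives. *Cdh6* and *Cdh8* differed by more than 1.5-fold without passing. *Cdh6*, a marker of early neural crest and of restricted brain regions, read 2.13 and 1.68 RPKM in *Prdm13GFP/+* and 1.38 and 1.03 RPKM in *Prdm13GFP/GFP* (log2 fold change -0.63, SE 0.214, limma adjusted p = 0.0900). *Cdh8*, which marks restricted neuronal groups, read 1.39 and 1.23 RPKM against 0.945 and 0.624 RPKM (log2 fold change -0.70, SE 0.266, limma adjusted p = 0.120). In both genes each mutant library lay under each control library, on 726 and 330 reads in all, where 62.1% of all tested genes did not overlap either. *Cdh8* passed the filter through *Prdm13GFP/+* only, the genotype where it was higher. The adjusted p over the alternatives was 0.00198 to 0.395 for *Cdh6* and 0.00576 to 0.404 for *Cdh8*. *Cdh10* lay between 1.31 and 1.55 RPKM in the 4 libraries, with the genotypes overlapping.

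**Figure D2:**
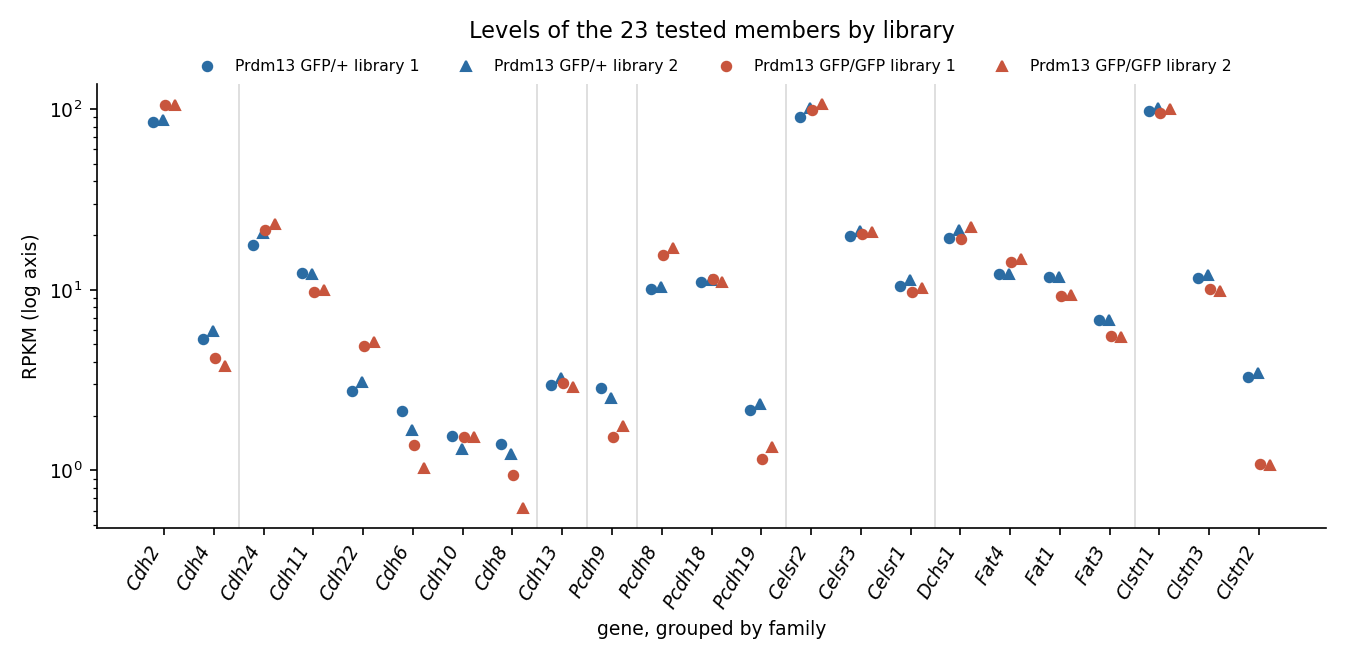
RPKM of the 23 tested genes in each of the 4 libraries (vertical log axis), grouped by family from type I cadherins at the left to calsyntenins at the right. *Cdh2*, *Celsr2* and *Clstn1* lie near 100 RPKM, and the *Clstn2* libraries of the genotypes stand farthest apart.

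The other 27 genes included 15 that were tested, of which 2 rose and 6 fell, and their median log2 fold change was -0.06. Their summed level was 315.5 and 336.2 RPKM in *Prdm13GFP/+* and 320.1 and 338.6 RPKM in *Prdm13GFP/GFP*, and the genotypes overlapped. 8 of these 15 thus rose or fell, as did 4 of the 8 classical cadherins and 19.7% of all tested genes. Whether classical and other genes differ in direction was not tested, since genes are not replicates.

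Of the 9 delta-protocadherins that matched the rule 4 were tested, 1 was called higher and 2 lower, where 3.65% of all tested genes were called higher and 2.67% lower. *Pcdh8*, paraxial protocadherin, which weakens cadherin adhesion in moving cells (gene ID 18530, chromosome 14 from 79766772 to 79771312), read 10.1 and 10.4 RPKM in *Prdm13GFP/+* and 15.5 and 17.0 RPKM in *Prdm13GFP/GFP*. The means were 10.2 ± 0.208 and 16.3 ± 1.05 RPKM (SD, n = 2 libraries of 1 pool), and no mutant library came near a control. The log2 fold change was 0.66 (SE 0.067, limma adjusted p = 0.00139), and it lay between 0.60 and 0.73 with any 1 library left out. About 9.61% of its exon bases are shared with *Gm9748* on the opposite strand, and the strand of the libraries is not given in the sources used here.

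*Pcdh9*, a delta-1 protocadherin on the same chromosome as *Pcdh8* (14, from 93013700 to 93892834), read 2.87 and 2.52 RPKM in *Prdm13GFP/+* and 1.54 and 1.77 RPKM in *Prdm13GFP/GFP*. Its mean was 1.63-fold lower in *Prdm13GFP/GFP* than in *Prdm13GFP/+* and its log2 fold change -0.67 (SE 0.146, limma adjusted p = 0.0231). *Pcdh19*, a delta-2 protocadherin on the X chromosome (from 133582860 to 133689044) whose loss causes epilepsy in people, read 2.16 and 2.35 RPKM in *Prdm13GFP/+* and 1.16 and 1.36 RPKM in *Prdm13GFP/GFP*. Its mean was 1.79-fold lower and its log2 fold change -0.80 (SE 0.163, limma adjusted p = 0.0188). Both mutant libraries lay below both controls in each gene. With any 1 library left out the adjusted p was 0.0651 to 0.121 for *Pcdh9* and 0.0619 to 0.0825 for *Pcdh19*, and with no filter on RPKM it was 0.181 and 0.155. With a pseudocount of 1 both still fell but neither was called, at log2 fold changes of -0.48 for *Pcdh9* and -0.53 for *Pcdh19*. *Xist* moved the same way as *Pcdh19*, and its part in that fall was not tested. *Pcdh18*, a delta-2 protocadherin, lay between 11.0 and 11.4 RPKM in all libraries, with a log2 fold change of 0.01 (SE 0.0597).

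The calsyntenins held the fall of greatest size among the 23 genes. *Clstn2* (gene ID 64085, chromosome 9 from 97444395 to 98033373), a synaptic calsyntenin, read 3.28 and 3.47 RPKM in *Prdm13GFP/+* and 1.09 and 1.08 RPKM in *Prdm13GFP/GFP*, on 165, 277, 77 and 64 reads. Its mean was 3.12-fold lower in *Prdm13GFP/GFP*, and the log2 fold change of -1.56 (SE 0.137, limma adjusted p = 0.000762) lay between -1.60 and -1.51 with any 1 library left out. *Clstn3*, which promotes synapse formation, read 11.7 and 12.1 RPKM against 10.1 and 9.85 RPKM, a fall by 0.25 on the log2 scale (SE 0.0603, limma adjusted p = 0.0327). With any 1 library left out its adjusted p was 0.113 to 0.184, and 0.0593 without a trend in eBayes. *Clstn1*, an adaptor for kinesin cargo, was the most abundant of the family, at 97.2 and 101.1 RPKM against 95.6 and 100.7 RPKM. Its genotypes overlapped, and its log2 fold change was -0.01 (SE 0.0492).

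The *Fat* and *Dachsous* genes code for very large cadherins that bind one another across cell borders. *Fat4*, the receptor of that pair, read 12.3 and 12.2 RPKM in *Prdm13GFP/+* and 14.3 and 14.8 RPKM in *Prdm13GFP/GFP* (log2 fold change 0.25, SE 0.0567, limma adjusted p = 0.0276). *Fat1*, which binds actin regulators, read 11.8 RPKM in both *Prdm13GFP/+* libraries and 9.23 and 9.42 RPKM in *Prdm13GFP/GFP* (log2 fold change -0.34, SE 0.0587, limma adjusted p = 0.0109). *Fat3*, a neuronal member, read 6.78 and 6.84 RPKM against 5.55 and 5.49 RPKM (log2 fold change -0.30, SE 0.0698, limma adjusted p = 0.0291). *Fat4* thus stood higher and *Fat1* and *Fat3* lower in the mutant pool, each with libraries that did not overlap and none by as much as 1.5-fold. With any 1 library left out none of the 3 passed, at adjusted p of 0.0932 to 0.173 for *Fat4*, 0.0759 to 0.0844 for *Fat1* and 0.116 to 0.164 for *Fat3*. Without a trend in eBayes the adjusted p of *Fat4* was 0.0565. *Dchs1*, the ligand of *Fat4*, read 19.3 and 21.5 RPKM against 19.2 and 22.2 RPKM and overlapped between genotypes. Exons on the opposite strand cover 8.68% of the *Fat4*, 5.86% of the *Dchs1* and 3.11% of the *Fat1* exon bases.

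The seven-pass cadherins, *Celsr1* to *Celsr3*, were all tested and none passed. *Celsr2*, which acts in neuronal maturation and ciliated cells, read 91.0 and 101.7 RPKM in *Prdm13GFP/+* and 98.8 and 106.6 RPKM in *Prdm13GFP/GFP*. *Celsr3*, needed for axon tracts, read 19.9 and 21.1 RPKM against 20.4 and 20.9 RPKM. Both overlapped between genotypes, with log2 fold changes of 0.09 (SE 0.068) and 0.01 (SE 0.0569). *Celsr1*, the polarity gene of epithelia, read 10.4 and 11.4 RPKM against 9.77 and 10.2 RPKM. Its genotypes did not overlap (log2 fold change -0.13, SE 0.0689, limma adjusted p = 0.254). *Celsr2*, *Clstn1* and *Cdh2* together took 61.2 and 61.4% of the summed RPKM of all 45 genes in *Prdm13GFP/+* and 63.6 and 63.7% in *Prdm13GFP/GFP*. *Cdh13*, a cadherin anchored by a glycolipid with no cytoplasmic tail, lay between 2.91 and 3.24 RPKM and did not pass either.

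**Figure D3:**
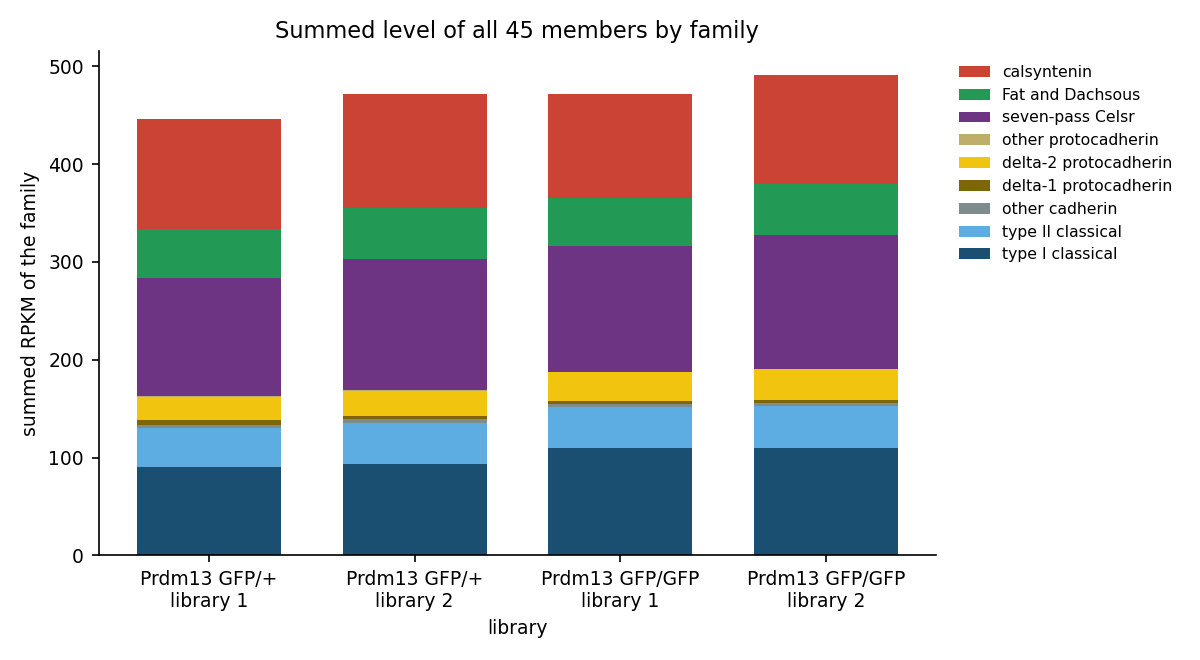
Summed RPKM of all 45 genes in each library (bars, stacked by family, vertical axis from 0). Type I cadherins, chiefly *Cdh2*, sum to 90.4 and 93.2 RPKM in *Prdm13GFP/+* and 110.2 and 109.8 RPKM in *Prdm13GFP/GFP*, while the seven-pass sums overlap between genotypes and the calsyntenin sums stand at 112.2 and 116.7 against 106.9 and 111.6 RPKM.

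The 22 genes under the filter had means over the 4 libraries of at most 0.899 RPKM, and 13 of them had fewer than 20 reads in every library. *Pcdh1*, *Pcdh10* and *Pcdh17*, all delta-protocadherins, had the highest means. *Pcdh1* read 0.864 and 0.769 RPKM in *Prdm13GFP/+* and 0.914 and 1.05 RPKM in *Prdm13GFP/GFP*, *Pcdh10* read 0.689 and 0.800 against 0.855 and 0.768 RPKM, and *Pcdh17* read 0.418 and 0.591 against 0.757 and 0.723 RPKM. The genotypes overlapped for *Pcdh10* only. *Cdh19*, a cadherin of Schwann cell precursors, had 0 reads in the 4 libraries, where 3 reads per library are the limit of detection that counting error allows, and 4 of the 45 genes had at most 3 reads in every library.

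After these values had been seen, the recovered reads of all genes with at least 20 reads over the 4 libraries were fitted with limma voom, a fit that weights each value by its depth. Of the 37 genes of the superfamily that entered, 6 rose and 12 fell, where 11.4% of the 14237 genes fitted rose and 12.7% fell. Of those under the filter on RPKM, *Cdh7* and *Cdh18* fell and *Cdh1* and *Pcdh17* rose. *Cdh7*, a type II cadherin of restricted neural tube domains, had 32 and 43 reads in *Prdm13GFP/+* and 15 and 13 in *Prdm13GFP/GFP* (log2 fold change -1.39, SE 0.315, limma voom adjusted p = 0.00192). *Cdh18*, a type II cadherin of the central nervous system, had 15 and 26 reads against 10 and 4 (log2 fold change -1.58, SE 0.431, limma voom adjusted p = 0.00884). *Cdh1* rested on 4 and 6 reads against 15 and 11 (log2 fold change 1.29, SE 0.462, limma voom adjusted p = 0.0457). Reads this few leave wide errors, and read numbers also differ with library depth. *Cdh6* and *Cdh8* fell in this fit as well, with log2 fold changes of -0.61 and -0.72. Of the 11 type II genes that entered, 5 fell, 1 rose and 5 did not pass.

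**Figure D4:**
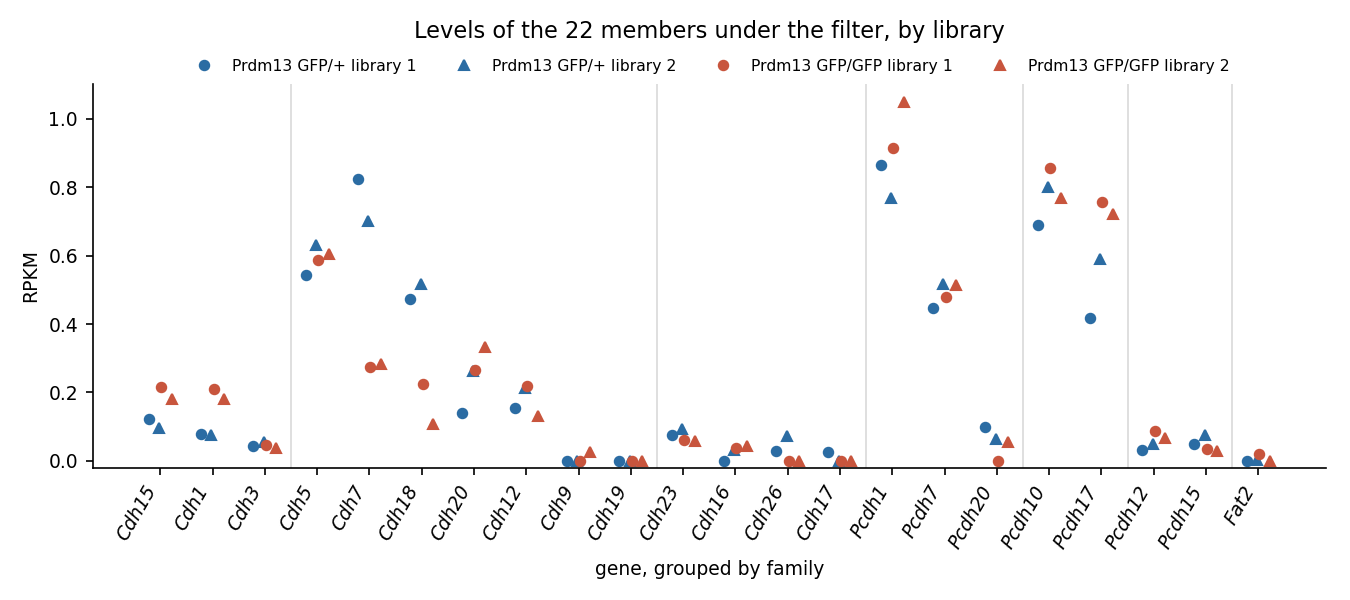
RPKM of the 22 genes with a mean under 1 RPKM in both genotypes, by library (vertical axis, linear), grouped by family. *Cdh7* and *Cdh18* stand higher in both *Prdm13GFP/+* libraries, and most other points of the genotypes lie close together.

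On GRCm38, *Cdh4* lies on chromosome 2 from 179442423 to 179899377, *Cdh11* on chromosome 8 from 102632095 to 102785493, *Fat1* on chromosome 8 from 44933100 to 45052257, *Fat3* on chromosome 9 from 15910189 to 16502681, *Fat4* on chromosome 3 from 38884667 to 39011992 and *Clstn3* on chromosome 6 from 124430756 to 124464784. Several of the 45 genes neighbour each other. On chromosome 15, *Cdh6*, *Cdh9*, *Cdh10*, *Cdh12* and *Cdh18* follow one another between 13028699 and 23477491, and of these *Cdh6* and *Cdh18* were lower in both mutant libraries, *Cdh10* and *Cdh12* overlapped between genotypes and *Cdh9* had 1 read in all. On chromosome 14, *Pcdh8*, *Pcdh17*, *Pcdh20* and *Pcdh9* lie between 79766772 and 93892834, with *Pcdh8* higher and *Pcdh9* lower in *Prdm13GFP/GFP*. Under the filter, *Pcdh17* was higher and *Pcdh20* lower in both mutant libraries, on 360 and 16 reads in all. On chromosome 8, *Cdh8* and *Cdh11* neighbour each other and both stood lower in *Prdm13GFP/GFP*, *Cdh8* having passed the filter through *Prdm13GFP/+* only. Of the genes that follow them up to 106670247, *Cdh5* and *Cdh3* overlapped between genotypes. *Cdh16* and *Cdh1* stood higher in both mutant libraries, on 6 and 36 reads in all.

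Cadherins of other tissues were checked against those tissues' markers. *Cdh5*, VE-cadherin, defines endothelium and read 0.542 and 0.630 RPKM in *Prdm13GFP/+* and 0.586 and 0.605 RPKM in *Prdm13GFP/GFP*. The 7 endothelial markers, *Cdh5* among them and led by *Cldn5*, a tight junction gene, summed to 2.74 and 3.64 RPKM against 3.52 and 4.05 RPKM, with 0 of 1 tested passing. The 7 mesenchyme markers, led by the collagen gene *Col1a2*, summed to 4.76 and 5.21 RPKM against 3.72 and 3.57 RPKM, with 0 of 1 tested passing, and stood lower with *Cdh11*, which mesenchyme also expresses. The 6 epithelial markers, led by the keratin gene *Krt8*, summed to 2.31 and 2.16 RPKM against 2.02 and 1.60 RPKM. *Krt8*, the only one tested, was called lower. It passed the filter through *Prdm13GFP/+* only, at means of 1.59 against 0.845 RPKM, so its call does not describe the list. The other 5 epithelial markers had higher means in *Prdm13GFP/GFP*, as *Cdh1* did, at levels under 0.8 RPKM in every library. Markers of neural crest and glia, led by *Ednrb*, an endothelin receptor gene, summed to 76.8 and 78.2 RPKM against 66.9 and 64.1 RPKM, with 1 of 3 tested called lower. The part of each in the values of *Cdh11*, *Cdh6* and *Cdh1* was not tested. Erythroid markers, led by the embryonic globin gene *Hbb-y*, summed to 47.2 and 47.9 RPKM against 49.7 and 48.6 RPKM, with none of 3 passing and *Hba-a1* at 0. Floor and roof plate markers, led by *Wnt1*, a roof plate signal, summed to 1.98 and 2.28 RPKM against 1.54 and 1.79 RPKM. *Wnt1*, the only one tested, was called lower, and the means of the other 4 were higher. *Wnt1* also passed the filter through *Prdm13GFP/+* only, at means of 1.79 against 0.932 RPKM, so its call does not describe the list. The 4 motor neuron markers, led by *Slc18a3*, the acetylcholine transporter gene, summed to 1.09 and 0.958 RPKM against 0.464 and 0.560 RPKM, with none tested. No marker of the lists described here other than *Hba-a1* was at 0 in all libraries.

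The partners of these adhesion molecules were described from 7 lists. Of 16 catenins and junction partners 15 were tested, 5 rose and 4 fell, where 9.76% and 9.95% of all tested genes did (median log2 fold change 0.16). The genes that rose were *Pvrl1*, *Jup*, *Plekha7*, *Ctnna2* and *Ctnnd2*, and those that fell were *Lima1*, *Pkp4*, *Vcl* and *Ctnnd1*. *Pvrl1*, nectin-1, which starts junctions between cells, was called and read 12.4 and 15.01 RPKM in *Prdm13GFP/+* and 20.7 and 21.7 RPKM in *Prdm13GFP/GFP*. *Ctnnd1*, p120 catenin, which keeps classical cadherins at the surface, read 42.7 and 42.9 RPKM against 36.6 and 35.3 RPKM, while *Ctnnd2*, its neuronal relative, read 8.37 and 8.54 against 10.1 RPKM in both mutant libraries. Catenins of the same type thus stood on opposite sides of the comparison.

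Of 12 planar cell polarity partners, which act with the *Celsr* genes, 10 were tested, 1 rose and 2 fell (median 0.05). Of all tested genes 9.76% rose and 9.95% fell, so the count that rose is near its share. *Prickle2* fell by 0.75 on the log2 scale, from 4.98 RPKM in both *Prdm13GFP/+* libraries to 3.07 and 2.76 RPKM, and *Prickle1* rose by 0.60, from 2.01 and 1.68 to 2.97 and 2.70 RPKM. Both are cytoplasmic components of one side of polarised cells, and both were called. *Vangl2*, the membrane component of that side, read 89.7 and 95.4 RPKM against 71.8 and 78.7 RPKM and fell without being called. Of 8 *Fat*-*Dachsous* and Hippo partners, all tested, 2 rose and 1 fell (median -0.06), beside the same 9.76% and 9.95%. The count that fell is near its share. *Fjx1*, a kinase of the Golgi that tunes binding between *Fat4* and *Dchs1*, was called higher, at 27.6 and 32.9 RPKM against 46.0 and 47.8 RPKM.

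The 9 genes of the WAVE complex, which some delta-protocadherins recruit to actin, were all tested. *Cyfip2* alone passed and was called higher, at 22.7 and 21.9 RPKM in *Prdm13GFP/+* and 34.2 and 34.7 RPKM in *Prdm13GFP/GFP* (log2 fold change 0.63, SE 0.0505, list median 0.02), so 1 of 9 rose, near the 9.76% of all tested genes. Of 8 cadherin-cleaving proteases, all tested, *Psen2* alone rose (median 0.11), which is also near that share. All 5 calsyntenin partners were tested and 3 rose, beside the same 9.76%, none to a fold of 1.5 (median 0.20). Their most abundant gene, the kinesin light chain gene *Klc1*, read 152.3 and 148.2 RPKM against 200.9 and 216.0 RPKM, while *Clstn2* and *Clstn3* fell. Of 7 repressors of cadherin genes 3 were tested, and *Zeb1*, a repressor of *Cdh1*, fell from 24.4 and 23.5 to 17.0 and 16.6 RPKM (list median -0.03), 1 of 3 beside the 9.95% of all tested genes that fell.

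**Figure D5:**
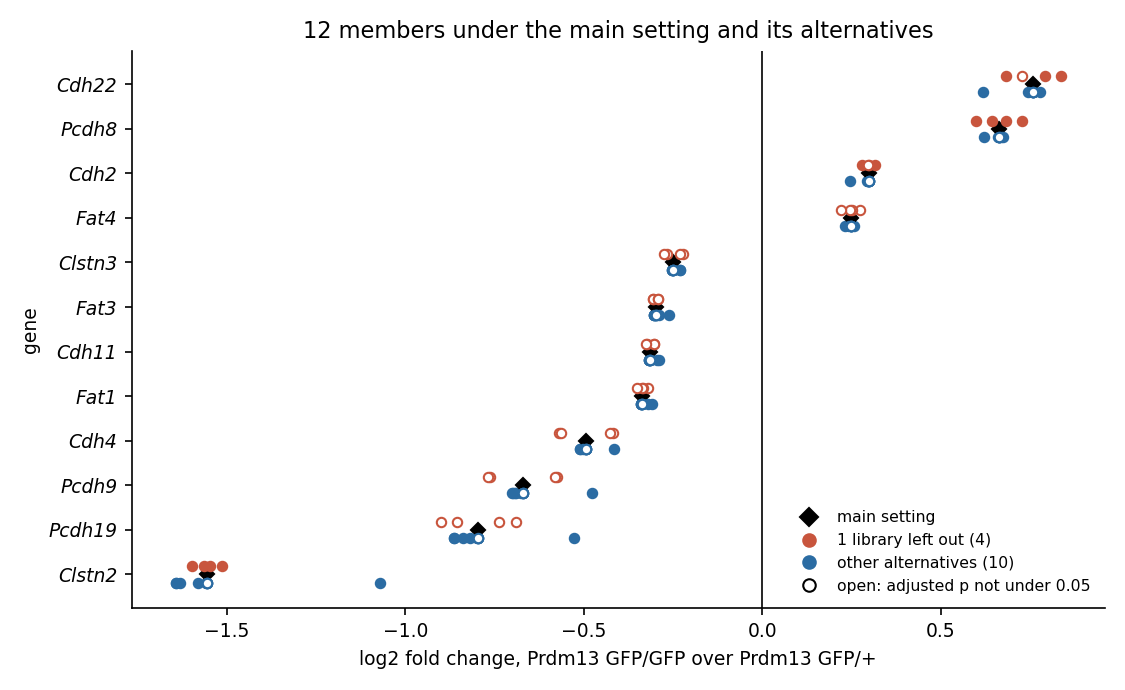
Log2 fold change (horizontal axis) of the 12 genes that rose or fell, under the main setting (black diamonds), with 1 library left out (red) and under the other 10 alternatives (blue), with open points where the adjusted p was not under 0.05. All points of a gene lie on the same side of 0, and those of *Clstn2* run from -1.64 to -1.07.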

How the data were processed

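RNA-seq of 4 libraries was analysed, 2 from 1 RNA pool of each genotype, grouped by the labels. The authors aligned reads to mm10 with TopHat2 2.1.0, counted them on RefSeq exons with featureCounts, normalized them by TMM in edgeR 3.6.8 and deposited RPKM. These values were used without further scaling. Reads were recovered as whole multiples of a step per gene (99.9% of the genes above 0, within 0.004 reads). For 7 of the 45 genes the solved exon length was over 10% off the annotation, so their reads are less certain. Reads of 2 libraries from 1 pool varied beyond counting error (mean chi-square per gene 2.33 and 2.22), so they were kept as separate libraries. The fit was limma 3.58.1 (R 4.3.3), lmFit and eBayes with a trend, tested on simulated data. With 2 libraries in each arm, exact permutation reaches 0.333 at the lowest (two-sided). Coordinates are those of RefSeq on GRCm38.p6. No protein sequences were used here.

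Genes named in full are those with an adjusted p under 0.05, the 6 most abundant of the other tested genes, any with a fold of at least 1.5, the 3 most abundant untested genes, called partner genes and the leading marker of each list. *Cdh7*, *Cdh18*, *Cdh1*, the sex-linked genes and the genes listed by neighbourhood or as partners without a call were chosen after values were seen. The genes, the 7 partner lists (catenins and junction partners, planar cell polarity partners, Fat-Dachsous and Hippo partners, WAVE complex, cadherin-cleaving proteases, calsyntenin partners, cadherin gene repressors), the marker lists and the promoter motifs were chosen with earlier results of these data known. The result of 1 marker list is not reported here. Alternatives were pseudocounts of 1 and 0.01, no filter, a filter on both libraries, median ratio scaling, quantile normalization, no trend, the replicate block, each library left out, and limma voom on recovered reads, of which the fit of all genes with at least 20 reads was added after seeing the data.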

Additional observations from a re-analysis of the deposited data

How the results depend on the processing

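With no filter on RPKM all 45 genes were fitted among 24421, and by limma 0 rose, 0 fell and 0 were called. The limma voom fits below passed several. In the unfiltered limma fit 33 genes of the whole table rose and 18 fell. The medians were then 0.0118 for classical cadherins and -0.0148 for the others. A pseudocount of 1 left 1 gene called lower and a classical median of -0.12, and quantile normalization gave a classical median of -0.10. Without a trend in eBayes 3 genes rose and 7 fell, *Fat4* and *Clstn3* no longer passing. In that fit 6.55% of all tested genes rose and 7.01% fell, against 9.76% and 9.95% in the main fit. limma voom on 12039 genes, 23 of the superfamily among them, gave 5 higher and 10 lower, 5 called lower and a classical median of -0.10, and the fit added later of genes with at least 20 reads (37 of the 45) gave 6 higher and 12 lower, 7 called lower and medians of 0.00232 and -0.00499. With 1 library left out, 1 to 3 genes rose, 1 fell in each fit, 1 to 2 were called higher and 1 called lower, the classical median ran from -0.17 to -0.10 and the other from -0.12 to -0.00542. Signs turned for genes near 0 only, *Celsr3* (-0.0306 to 0.0577, and -0.00045 under quantile normalization), *Dchs1* (-0.0879 to 0.12), *Pcdh18* (-0.0127 to 0.0328) and *Clstn1* (-0.0518 to 0.0223).

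The replicate numbers share only a number, with 2 libraries per pool and a correlation of 0.05 between the deviations of same-numbered libraries. With the replicate block 5 genes rose and 9 fell, *Cdh24* and *Cdh6* being added, and 4 were called lower. In that fit 14% of all tested genes rose and 12.6% fell, against 9.76% and 9.95% in the main fit. Of the values for 20 named genes under 14 alternatives, 215 kept direction and side of the threshold, 49 no longer passed, 7 newly passed and 9 turned sign, and the cause of these changes was not tested. Depth limits the 22 genes under the filter on RPKM, of which 13 had fewer than 20 reads in every library.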
